A study of Noccaea caerulescens and Thlaspi montanum with 10 samples.

Results

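Of 41841 assembled transcripts on which leaf reads of 3 plants of the genus Noccaea were counted, 40153 had at least 1 read, and 60 (0.143% of the 41841) were read in both individuals of the nickel hyperaccumulator and were at or near 0 reads in the other plants. These 60 transcripts, detected in firmiensis leaves alone, are described here. They were selected by their read counts. Each reached at least 1 CPM (reads per 1000000 counted reads of its library) in both firmiensis libraries. Each also had at most 3 reads summed over the 2 Viviez libraries and at most 3 summed over the 2 N. montana libraries. The contrast between firmiensis and the other plants is therefore fixed by the choice, and the levels below are given as a description, with no test. The 60 made up 0.305% of the 19644 transcripts at 1 CPM or more in both firmiensis individuals.

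The groups were field leaves from 2 separate individuals each of Noccaea caerulescens subsp. firmiensis (firmiensis, labelled a nickel hyperaccumulator), N. caerulescens from Viviez (Viviez, labelled a non-accumulator of nickel) and N. montana (also a non-accumulator). The labels list no metal treatment of the field plants, and each individual yielded 1 polyA RNA library, numbered replicate 1 or 2. Firmiensis was collected in July and the other plants in June, each at its own site, so that plant, site and month cannot be told apart. The labels also list 4 libraries of plants grown hydroponically with 37.5 μM NiCl2 and 20 μM Fe-HBED, an iron chelate, for 7 weeks, which were not analysed here.

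Hyperaccumulators take up a metal through the roots, load it into the xylem and store it in the shoot, mostly in leaf vacuoles. In N. caerulescens this has been tied to strong expression of transporters and chelator enzymes that related plants also carry. A transcript near 0 reads may come from a gene that is missing, from a gene that is silent in the leaf, or from a copy too different in sequence for its reads to be counted on the firmiensis assembly, and these cannot be told apart in read counts. The reference was assembled de novo from hydroponic plants, and its contigs carry numbers only. The files do not pair the numbers with gene names, so no transcript below has a known function. Contig lengths were not used here, so CPM of different transcripts also differ with their lengths.

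Library totals ran from 59476715 to 68439128 reads. Individuals of the same plant differed far beyond counting noise, with chi-square values of 85.1 to 157 per degree of freedom, and were counted as separate replicates. The label of leaf tissue could not be checked against marker genes, since the contigs have no names. In whole-leaf RNA, fewer cells of a type and less RNA per cell cannot be told apart. Over both libraries of a plant, 3 reads correspond to 0.0244 CPM for Viviez and 0.0219 CPM for N. montana. This level was taken as the limit for a count of 0 there. In the edgeR quasi-likelihood test over 32989 transcripts, all 60 passed the low-count filter through their firmiensis reads. All 60 were called higher in firmiensis than in Viviez, where 9.5% of the tested transcripts were called in that direction. All 60 were also called higher than in N. montana, where 15.8% were. The rule used these libraries, so nothing is read from either count. Against Viviez, fewer of the 60 and fewer of all tested transcripts were called higher whenever a single library was left out.

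The set was small in reads as well as in number. Its transcripts held 19331 and 20877 reads in firmiensis replicates 1 and 2, which is 0.0325% and 0.0345% of those libraries. Over all 60, Viviez had 17 and 7 reads and N. montana had 17 and 14. Most members were lightly read: 23 averaged under 2 CPM over the firmiensis individuals, 43 under 5 CPM, and 6 reached 10 CPM. The mean CPM ran from 1.07 to 45.5, with a median of 2.99. The 3 most-read transcripts supplied 34.5% of the set's reads in firmiensis replicate 1 and 34.8% in replicate 2.

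**Figure D1:**
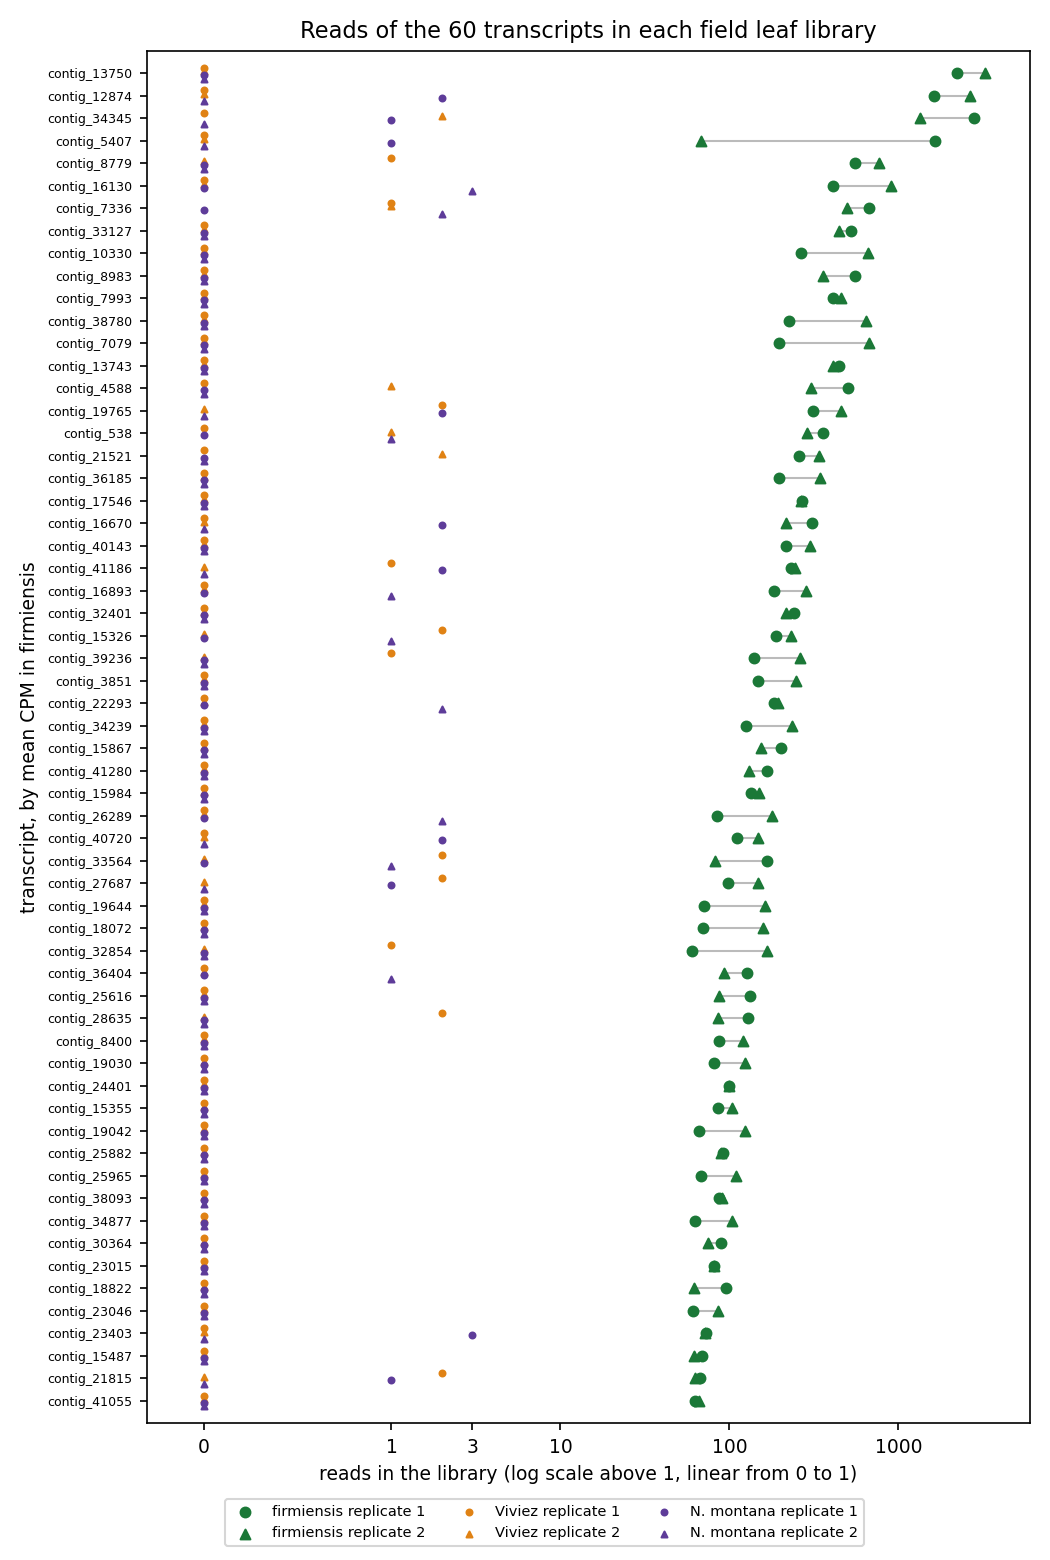
Reads of each of the 60 transcripts (rows, from the highest mean CPM in firmiensis at the top) in the 6 field leaf libraries, on an axis that is logarithmic above 1 read. Firmiensis points, joined by a line, lie at 60 reads or more, and Viviez and N. montana points lie between 0 and 3 reads, as the rule fixes.

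The transcript with the most reads, contig_13750, had 37.4 and 53.6 CPM in firmiensis (2224 and 3247 reads), and 0 reads in every Viviez and N. montana library. Taking 3 reads over a plant as the limit for a count of 0, its firmiensis level was at least 1864-fold that of Viviez and at least 2078-fold that of N. montana. It supplied 11.5% of the set's reads in firmiensis replicate 1 and 15.6% in replicate 2. Its number lies 7 away from that of contig_13743, the closest pair among the 60, singled out after its values were seen. Contig_13743 had 7.52 and 6.82 CPM in firmiensis (447 and 413 reads) and likewise no read in the other plants. The individuals stood in opposite order for this pair, with more contig_13750 in replicate 2 and slightly more contig_13743 in replicate 1.

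Contig_12874 had 27.3 and 44.2 CPM in firmiensis, 0 reads in Viviez, and 2 reads in N. montana, both in replicate 1. Its firmiensis level was at least 1464-fold that of Viviez. The ratio over N. montana was 2449, with an exact 95% counting interval of 677 to 20233. Contig_34345 had 47.5 and 22.3 CPM in firmiensis (2825 and 1349 reads), 0 and 2 reads in Viviez, and 1 and 0 reads in N. montana. The ratio of its firmiensis level to that of Viviez was 2133 (interval 590 to 17623), and to that of N. montana 4757 (interval 853 to 187971). These intervals are wide because the denominators rest on 1 or 2 reads, and they cover counting error only. The most-read transcripts thus included members with and without stray reads elsewhere.

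At the low end, contig_41055 had 1.06 and 1.09 CPM in firmiensis (63 and 66 reads) and no read in the other plants, so that its firmiensis level was at least 43-fold that of Viviez and 49-fold that of N. montana. Contig_21815 had 1.13 and 1.04 CPM in firmiensis (67 and 63 reads), 2 and 0 reads in Viviez, and 1 and 0 reads in N. montana. Its ratio over Viviez was 66 (interval 18 to 554), the lowest over Viviez among members with a Viviez read. With 3 reads as the limit for a count of 0, no larger difference could have been shown for contig_41055 at this depth. Over the whole set, the bounds for members at 0 reads ran from 43 to 1864 over Viviez and from 49 to 2078 over N. montana.

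The edges of the set were close to what lay just outside it. The lowest value in a single firmiensis library inside the set was that of contig_32854, with 1.01 and 2.76 CPM in firmiensis, 1 and 0 reads in Viviez, and 0 reads in N. montana. Just outside, contig_35804 had 0.992 and 2.48 CPM in firmiensis and no read in the other plants, and missed by 1 read in replicate 1, with 59 reads against 60. On the Viviez limit, contig_6380 had 40.5 and 20.3 CPM in firmiensis, 2 reads in each Viviez library, and 0 and 2 reads in N. montana, and was left out with 4 Viviez reads. On the N. montana limit, contig_16130 stayed in with 3 reads in N. montana replicate 2, 0 in Viviez, and 6.86 and 15.0 CPM in firmiensis. Contig_14975 had 16.3 and 18.8 CPM in firmiensis, no Viviez read, and 4 and 0 reads in N. montana, and was left out. Counting contig_6380, 8 transcripts had 4 to 10 Viviez reads with the remaining limits met. Counting contig_14975, 29 had 4 to 10 N. montana reads.

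The 60 are the overlap of 2 larger groups. Of all 19644 transcripts at 1 CPM or more in both firmiensis individuals, 347 had at most 3 reads in Viviez and 188 in N. montana. The 60 make up 17.3% of the 347, to be set beside the 188 among all 19644. They make up 31.9% of the 188, to be set beside the 347 among all 19644. The size of this overlap was not tested. Both counts rest on the same firmiensis libraries.

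Reads in the other plants were few, as the rule fixes. No read at all was found in Viviez or N. montana for 35 of the 60, and 25 had between 1 and 4 reads over the 4 libraries. Viviez reads were found for 15 members and N. montana reads for 19, of which 9 had both. Of the 240 values of members in these libraries, 35 were above 0, of which 17 were 1 read, 16 were 2 reads and 2 were 3 reads. Reads in both individuals of a plant were found for 1 member in Viviez and 0 in N. montana. The limit of 3 reads over both libraries leaves little room for them. That member was contig_7336, which had 11.3 and 8.15 CPM in firmiensis, 1 read in each Viviez library, and 0 and 2 reads in N. montana. It shared the highest sum elsewhere, 4 reads, with contig_19765, which had 5.25 and 7.51 CPM in firmiensis, 2 and 0 reads in Viviez, and 2 and 0 in N. montana.

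Members with a read elsewhere tended to be the more heavily read ones in firmiensis, with a median of 469 firmiensis reads (130 to 4298) against 233 (129 to 5471) for the 35 without. The ranges overlap almost fully. The 2 Viviez libraries differed in this respect: 11 members had a read in replicate 1 and 5 in replicate 2, with 17 and 7 reads in sum. Over the 472 transcripts present in firmiensis with at most 10 Viviez reads, replicates 1 and 2 held 659 and 410 reads. The run name of Viviez replicate 2 carries the number 4 and that of the other field libraries, firmiensis included, the number 5. The sources used here do not say what the number means, and its part in the stray reads was not tested. The N. montana libraries, both numbered 5, had 17 and 14 reads on 10 and 9 members.

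The firmiensis individuals differed from each other in many of these transcripts. Between replicates 1 and 2, 35 of the 60 lay within 1.5-fold and 11 were at least 2-fold apart, 3 of them higher in replicate 1 and 8 higher in replicate 2. The median absolute log2 difference in CPM was 0.5 among the 60 and 0.35 among all 19644 transcripts present in firmiensis. Within 1.5-fold lay 58.3% of the 60 and 70.1% of all those present. The share at least 2-fold apart was 18.3% among the 60 and 11.9% among all those present. By class of mean CPM, the median was 0.47 for 23 members against 0.36 for all present at 1 to 2 CPM, and 0.43 for 20 members against 0.48 at 2 to 5 CPM. It was 0.52 for 11 members against 0.43 at 5 to 10 CPM, 1.13 for 3 against 0.36 at 10 to 20 CPM, and 0.69 for 3 against 0.29 at 20 CPM or more. In the same order of classes, 3, 2, 3, 2 and 1 members were at least 2-fold apart. The shares of all present were 6.06%, 18.5%, 17.3%, 12.3% and 8.15%, so that at 2 to 5 CPM the members had the lower share. Replicate 2 was the higher individual in 35 of the 60 and in 63.8% of all present transcripts. No test was made of these differences, because transcripts of the same libraries are not replicates.

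The widest gap was in contig_5407, at 27.7 CPM in firmiensis replicate 1 and 1.12 CPM in replicate 2 (1649 and 68 reads), a 24.7-fold difference between individuals. It had 0 reads in Viviez and 1 read in N. montana replicate 1. Its bound over Viviez, at least 585-fold, rests on firmiensis replicate 1, without which it was at least 45-fold. Contig_7079 had 3.31 and 11.0 CPM in firmiensis (197 and 669 reads) and contig_38780 had 3.8 and 10.7 CPM (226 and 648 reads), and neither had a read elsewhere. Both were higher in replicate 2, by 3.33-fold and 2.82-fold. At the other extreme, contig_23015 had 81 reads in each firmiensis individual and contig_24401 had 99 in each, again with no read in the other plants.

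Beyond these 60, a further 86 transcripts met both limits for the other plants and reached 1 CPM in 1 firmiensis individual but not in the other, 31 of them in replicate 1 and 55 in replicate 2. Many were near misses, and 26 had at least 0.5 CPM in the other individual. Others were all or nothing: 39 of the 86 had at most 3 reads in the other firmiensis individual, and 29 of these had 0. The highest was contig_23143, with 2314 and 0 reads in firmiensis (38.9 CPM in replicate 1) and 0 reads in all 4 libraries of Viviez and N. montana, so that it was found in 1 of 6 individuals. In the opposite direction, contig_21828 had 2 and 909 reads in firmiensis (15.0 CPM in replicate 2) and no read in the other plants. Both were picked out with their values in view.

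**Figure D2:**
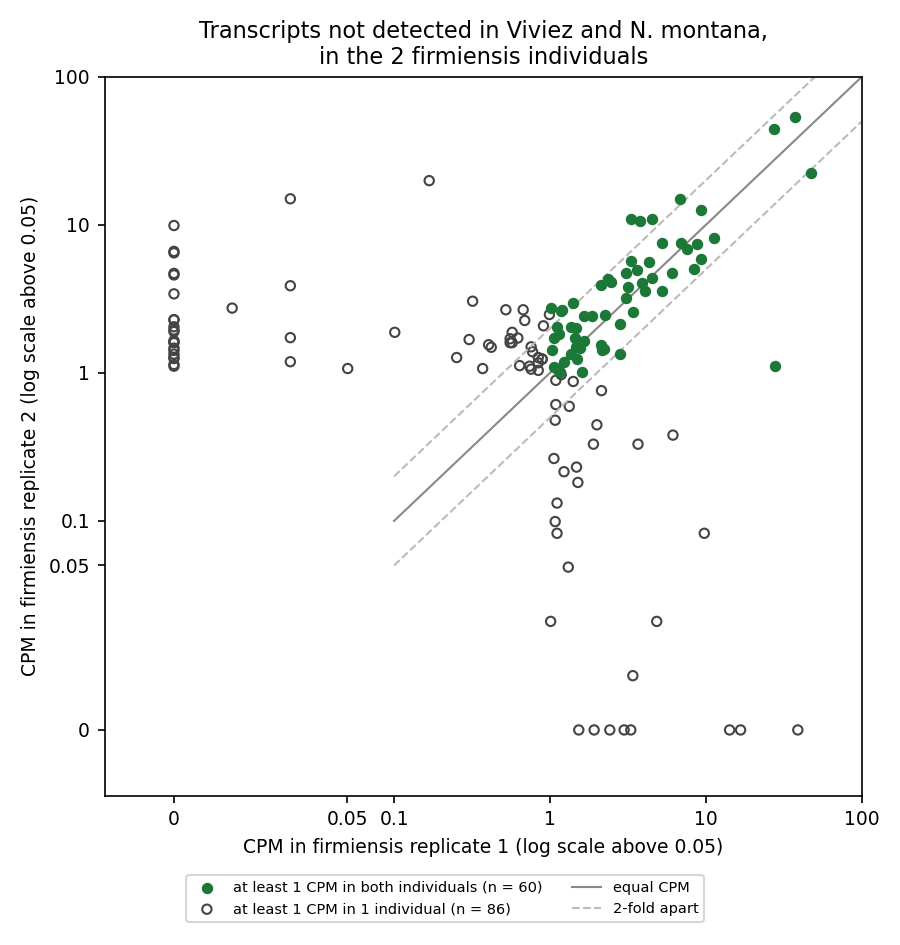
CPM in firmiensis replicate 2 against replicate 1 (axes logarithmic above 0.05) for transcripts with at most 3 reads in Viviez and in N. montana. Filled points are the 60 transcripts at 1 CPM or more in both individuals, 11 of which lie at least 2-fold apart, and open points are the 86 at 1 CPM or more in 1 individual, 29 of which had 0 reads in the other.

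Leaving a library out of the choice gives a measure that the rule did not use. When firmiensis replicate 1 was left out, 115 transcripts were chosen, and 60 of them (52.2%) reached 1 CPM in that library while 27 (23.5%) had at most 3 reads there. Of all 21246 transcripts at 1 CPM or more in firmiensis replicate 2, 92.5% reached 1 CPM in replicate 1 and 0.635% had at most 3 reads. When firmiensis replicate 2 was left out, 91 transcripts were chosen, of which 65.9% reached 1 CPM in that library and 13.2% had at most 3 reads. The figures for all 20517 transcripts at 1 CPM or more in replicate 1 were 95.7% and 0.444%. Transcripts undetected in the other plants were thus also undetected in the other firmiensis individual in a larger share of cases, whichever individual was left out.

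The same shares were taken within classes of CPM in the firmiensis library that was kept. Among transcripts at 2 to 5 CPM in firmiensis replicate 2, at most 3 reads in replicate 1 were found for 8 of 37 chosen transcripts (21.6%) and for 1.27% of all 3453. Among those at 2 to 5 CPM in replicate 1, they were found in replicate 2 for 5 of 30 chosen (16.7%) and for 0.789% of all 3548. At 5 to 10 CPM the counts were 3 of 12 chosen against 0.529% of all with replicate 1 left out, and 0 of 12 against 0.582% with replicate 2 left out. At 1 to 2 CPM they were 15 of 56 against 2.25% with replicate 1 left out, and 4 of 41 against 1.13% with replicate 2 left out. At 10 CPM or more they were 1 of 10 against 0.132%, and 3 of 8 against 0.141%, in the same order. The sets made in the same way for the other plants gave 15.6% and 0% in Viviez, where 32 and 27 transcripts were chosen without replicates 1 and 2, and 2.68% and 5.2% in N. montana, with 149 and 173 chosen. Whether firmiensis differs from the other plants in this was not tested.

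**Figure D3:**
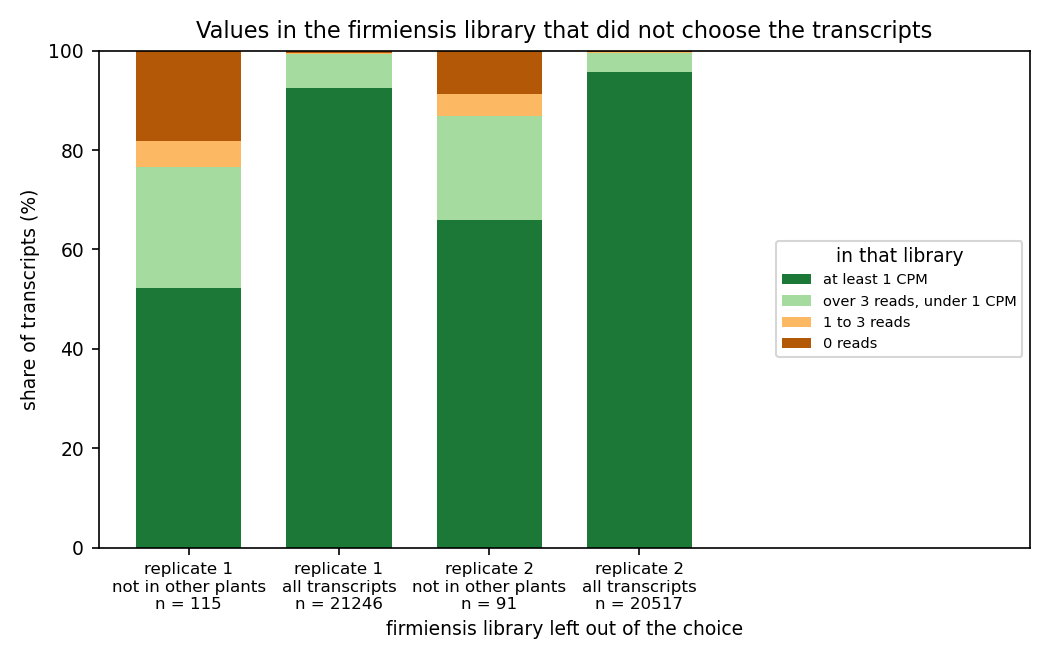
Share of transcripts (%) by their value in the firmiensis library that was left out of the choice, for transcripts not detected in Viviez and N. montana and for all transcripts at 1 CPM or more in the firmiensis library that was kept. With replicate 1 left out, 52.2% of 115 chosen and 92.5% of all 21246 transcripts reached 1 CPM in it.

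Leaving out a library of another plant showed how far the absences held in an individual that had no part in the choice. Without Viviez replicate 1, 68 transcripts were chosen, and 62 of them (91.2%) had at most 3 reads in that library, with 27 reads as the highest. Without Viviez replicate 2, 62 of 64 (96.9%) had at most 3 reads in it, with 6 as the highest. The shares were lower in N. montana, where 65 of 87 (74.7%) had at most 3 reads in replicate 1 and 65 of 88 (73.9%) in replicate 2 when each was left out. The highest values there were 152 and 162 reads, and 1 and 4 transcripts reached 1 CPM. Among all transcripts present in firmiensis, between 1.63% and 2.56% had at most 3 reads in a given library of the other plants. The chosen transcripts already had at most 3 reads in the same plant's kept library, so these shares are not like for like.

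Position in the assembly's numbering was not itself used by the rule, but it is not independent of it. The contigs run from number 1 to 41843, and the sources used here do not say what the numbering follows, but read abundance fell along it. The median of the mean CPM over all 6 libraries was 29.5 in the lowest of 5 equal ranges of the numbers and 0.129 in the highest. The rule holds members near 0 reads in the Viviez and N. montana libraries, so a later position can follow from the choice. The 60 ran from number 538 to 41280 with a median of 21668, against a median of 11339.5 for all transcripts present in firmiensis. From the lowest to the highest of these ranges, the set held 7, 14, 15, 10 and 14 transcripts, which is 0.0951%, 0.217%, 0.387%, 0.825% and 1.92% of those present in firmiensis. No member lay within 5 numbers of another.

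The share also differed between the lowest and highest ranges within classes of firmiensis CPM. These classes match the firmiensis level only, and the class above 5 CPM has no upper limit. At a mean of 1 to 2 CPM in firmiensis, 0 of 170 present transcripts in the lowest range were members, against 4 of 145 (2.76%) in the highest. At 2 to 5 CPM the counts were 1 of 526 (0.19%) and 8 of 221 (3.62%), and above 5 CPM they were 6 of 6663 (0.09%) and 2 of 364 (0.549%). The shares above 5 CPM did not rise steadily, with 0.137%, 0.0464% and 0.183% in the ranges between. Without classes of CPM, a rise along the numbers was also present in the sets of the other plants. Among transcripts detected in Viviez leaves alone, chosen by the same rule, the share of those present went up from 0.0277% in the lowest to 1.01% in the highest range, and in N. montana leaves alone from 0.134% to 4.37%.

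**Figure D4:**
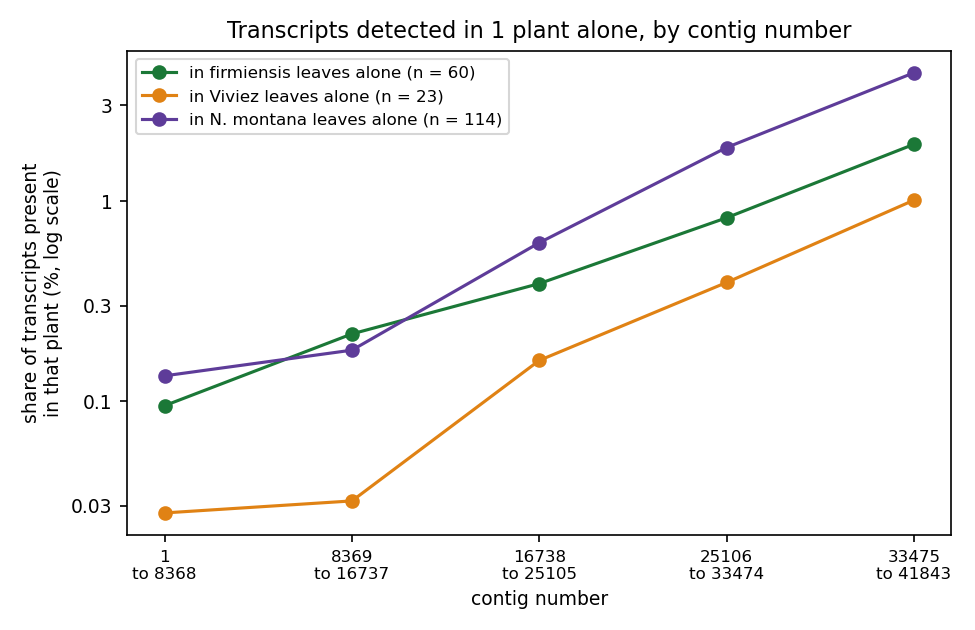
Transcripts detected in 1 plant alone, as a share (%, log axis) of all transcripts at 1 CPM or more in both individuals of that plant, by 5 equal ranges of the contig number. All 3 lines are highest at the right, where they reach 1.92% for firmiensis, 1.01% for Viviez and 4.37% for N. montana.

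Set beside the sets made for the other plants, the 60 lay between them in number. The 23 transcripts detected in Viviez alone made up 0.119% of the 19309 present there, and the 114 detected in N. montana alone 0.55% of 20714. Members of the firmiensis set had a median mean CPM of 2.99, against 2.41 for the Viviez set and 2.48 for the N. montana set. No read in either other plant was found for 35 of 60 transcripts in the firmiensis set (58.3%), 5 of 23 in the Viviez set (21.7%) and 45 of 114 in the N. montana set (39.5%). The reference was assembled from firmiensis, so a transcript that firmiensis lacks altogether is less likely to be listed, and the part of this in the 3 counts was not tested. The most-read transcript of the Viviez set was contig_6444, with 44.2 and 24.3 CPM in Viviez, 0 and 2 reads in firmiensis, and 2 and 0 reads in N. montana. Next came contig_11160, with 17.0 and 10.1 CPM in Viviez and no read elsewhere. In the N. montana set it was contig_16363, with 113 and 8.0 CPM in N. montana and no read in firmiensis or Viviez. Contig_40622 followed, with 109 and 8.42 CPM in N. montana, 0 and 2 reads in firmiensis, and none in Viviez.

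No excess of even numbers was detectable among the members' firmiensis read counts. Of their 120 firmiensis counts, 52 were even (43.3%, exact 95% interval 34.3 to 52.7), and 51.7% were even among the other transcripts present in firmiensis over a like range of counts, a value inside that interval.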

How the data were processed

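The authors deposited raw read counts per transcript, 1 value per library, per the file headers. They were counted on contigs assembled de novo from firmiensis, per the design text. Libraries were TruSeq Stranded mRNA made from leaves kept in RNAlater, per the labels' protocols. The sources used here name no assembler, aligner or counting tool, nor whether counting used the strand. For 2 transcripts the cells were empty, and they were left out. There were 0 columns from another series.

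CPM are counts divided by the library total. The members and lists were chosen with earlier results of these data known. Calls came from edgeR 4.0.16 in R 4.3.3 (filterByExpr with a minimum count of 10, TMM, glmQLFit and glmQLFTest, 1 model of all 6 libraries with a coefficient per plant, Benjamini-Hochberg adjustment over all transcripts tested, threshold 0.05), and DESeq2 1.42.0 was an alternative. The procedure was tested on simulated data. Intervals are exact binomial (SciPy 1.17.1) and, like the limit of 3 reads for a count of 0, cover counting error only. Both take single reads as independent. If some reads were counted in pairs, the intervals would be too narrow and the limit too low, which was not tested. The bounds built on the limit take the firmiensis level without error, so they are not of the same kind as the intervals. With 2 individuals per plant, no spread could be estimated within a plant beyond that pair. Transcripts of near-identical or overlapping genes may share reads, which leaves their single levels uncertain.

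Most transcripts were named by rule. Of the 60, these were the 4 highest and 2 lowest in mean CPM, and the 3 with the most reads in other plants. Also named were the 3 with the largest and the 2 with the smallest ratio between firmiensis individuals, and any within 5 numbers of another. The rule further took those on either side of each threshold, and the 2 highest in the Viviez and N. montana sets. Contig_13743, contig_23143 and contig_21828 were named outside the rule, with their values in view.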

Additional observations from a re-analysis of the deposited data

How the results depend on the processing

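The number of transcripts moved with each threshold of the rule. It was 109 at 0.5 CPM in both firmiensis individuals, 32 at 2 CPM and 12 at 5 CPM. It was 35 with 0 reads allowed in each other plant, 80 with at most 6 and 108 with at most 10, and 65 with TMM-scaled CPM. All 60 were kept wherever a limit was loosened, and with TMM-scaled CPM. Leaving out single libraries gave between 64 and 115, the highest without firmiensis replicate 1, and 91 without firmiensis replicate 2.

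Of the 60, between 17 and 59 were called higher in firmiensis than in Viviez when a single library was left out, and 59 or 60 higher than in N. montana. A plant is then left with 1 library, assumed to vary like the others. With DESeq2, 55 and 58 of the 60 were called higher, beside 5226 and 6635 of all 40153 transcripts. The same-numbered libraries share only a number, with correlations of their deviations of 0.0155, -0.0598 and -0.0374 between plants. With the replicate block, 50 of the 60 were called over Viviez and 60 over N. montana, beside 1713 and 3834 of all 32989. Over all tested transcripts, those called higher in firmiensis than in Viviez numbered 3133, against 1713 with the replicate block, 5226 with DESeq2 and from 457 to 2668 without single libraries. Those higher than in N. montana numbered 5209, against 2887 to 3977 without single libraries. With 2 individuals per plant, presence in a plant is not presence in its population.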
